A study of Mus musculus with 8 samples.

Results

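The genes described here are 10 epithelial stem and progenitor markers, Mex3a, Prom1, Procr, Lgr4, Lgr5, Lgr6, Cd24a, Cd44, Kit and Epcam, measured in mouse mammary tumor organoids with and without SOX4. They were chosen by name as markers, with the knockout-against-control values of both data types already known, so their values in that contrast are given as a description and without a test. All 10 were found among the 38293 gene identifiers of the bulk tables and among the 15155 genes of the single-cell tables. Organoids are small clusters of cells grown from tumor tissue in gel, and these came from the MMTV-PyMT; MMTV-Cre; Ecadherin-mCFP model. In that model a viral promoter active in mammary epithelium drives the polyoma middle T oncogene and Cre, and E-cadherin carries a fluorescent tag. All groups shared these alleles and were grown for 4 days from single cells in medium with FGF2. Bulk RNA was sequenced from 2 control lines (WT1 and WT3) and 3 SOX4 knockout (SOX4KO) lines (H7, M4 and H4), and single cells from 1 control library (GR17) and 2 SOX4KO libraries (GR18 and GR19). Every line grew from a separate clone, so the spread between lines includes the spread between clones, and which clone entered which single-cell library is not given in the sources used here.

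As background, LGR4, LGR5 and LGR6 are related receptors for the secreted R-spondins, which raise Wnt signaling by keeping the ubiquitin ligases RNF43 and ZNRF3 away from Frizzled receptors. LGR5 marks cycling stem cells of the intestinal crypt, and LGR6 marks stem cells of hair follicles and skin. MEX3A is an RNA-binding protein found in a subset of LGR5-positive crypt cells. In the mammary gland, EpCAM, CD24 and CD44 are surface proteins used to sort epithelial fractions, KIT marks luminal progenitors, PROCR (the endothelial protein C receptor) marks a basal population with stem cell activity, and prominin-1 (CD133, from Prom1) lies in protrusions of the apical membrane of luminal cells.

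SOX proteins and the TCF factors of the Wnt pathway bind short related motifs, so the bases before the start sites of the members are shown for Mex3a, Prom1 and Lgr6, the members furthest below control in the single-cell libraries and also lower in bulk. RefSeq promoter sequences (GRCm38.p6) were at hand for 8 of the 10 members, with 10 start sites in all, and Lgr5 and Cd24a had no entry. The 250 bases before each start were searched on both strands for ACAAAG and ACAATG, which do not overlap each other, and matches are printed in capitals.
Mex3a (chr3:88531696-88531945, + strand): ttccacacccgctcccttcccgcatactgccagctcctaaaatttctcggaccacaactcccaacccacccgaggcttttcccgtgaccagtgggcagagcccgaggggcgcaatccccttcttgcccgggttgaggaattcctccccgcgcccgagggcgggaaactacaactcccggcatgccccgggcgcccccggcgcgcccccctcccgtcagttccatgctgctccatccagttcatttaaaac
Prom1 (first start site, chr5:44101737-44101986, - strand): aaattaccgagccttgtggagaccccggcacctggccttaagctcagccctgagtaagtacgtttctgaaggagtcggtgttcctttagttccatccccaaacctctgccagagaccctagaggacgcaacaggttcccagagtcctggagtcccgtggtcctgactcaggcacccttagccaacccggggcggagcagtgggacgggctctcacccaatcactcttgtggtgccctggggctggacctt
Lgr6 (chr1:135105277-135105526, - strand): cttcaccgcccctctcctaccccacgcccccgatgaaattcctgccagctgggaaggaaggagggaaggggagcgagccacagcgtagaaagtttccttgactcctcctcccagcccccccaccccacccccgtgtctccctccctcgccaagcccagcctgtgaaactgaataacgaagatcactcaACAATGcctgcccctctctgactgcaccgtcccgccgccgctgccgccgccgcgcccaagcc
The Lgr6 window held 1 match to ACAATG, on the strand of the gene and beginning 62 bases before the start, and no window of a member held ACAAAG. Of 32851 mouse promoter windows of the same length, 16.5% held ACAAAG, 10.7% held ACAATG and 25.2% held either. GC content was 64% before Mex3a, 59.2% before Prom1 and 65.2% before Lgr6, and over all 10 windows it ran from 50.8% at the second start of Prom1 to 70.8% at Kit. The counts themselves were made on an older build (NCBIM37, mm9), so these coordinates belong to the sequences only.

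The bulk libraries held 3050323 to 4678497 reads on genes. Reads on no gene were 47.2% to 65.3% of those on and off genes, highest in M4. Sox4 itself stood at 295 and 374 TMM-normalized CPM (reads scaled to a common library size) in WT1 and WT3 and at 199, 179 and 299 in H7, M4 and H4, a log2 fold change of -0.57 (standard error 0.25) with an adjusted p of 0.277 in edgeR's quasi-likelihood test, so it was not called. The study describes small insertions or deletions in the knockout lines, which counts of reads do not show, and the labels were therefore not checked by this level. For the knockout lines it first selected, the study also reports that western blots showed no SOX4 protein. In the single-cell libraries Sox4 was at 118, 82.5 and 110 CPM in GR17, GR18 and GR19. Of the 11682 genes tested, 6.27% were called at an adjusted p under 0.1, 4.1% higher and 2.17% lower in SOX4KO lines. Keratin genes and Epcam were read in every line. Summed endothelial markers were 2.07 to 5.40 CPM and summed immune markers 1.59 to 14.4 CPM, with 5 of the 8 genes of each list at 0 in every line. Fibroblast markers summed to 58.7 to 104 CPM, most of it Pdgfra, and 2 of those 8 genes were at 0 in every line.

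All 10 members were counted well enough to be tested. Of these, 5 lay among the genes called lower in SOX4KO lines (Mex3a, Prom1, Lgr5, Lgr6 and Cd24a), against 2.17% of all genes, and 0 lay among those called higher. By value, 8 were lower and 2 higher, the median log2 fold change was -1.05 against 0.01 for all genes tested, and in 8 members the control and SOX4KO lines did not overlap, as in 36.9% of all genes. Since the members were picked with these values known, nothing is read from those counts. With DESeq2 or with every gene of at least 1 count tested, Kit joined the genes called lower, as it did without H4, and the count of members called lower fell to 2 (Mex3a and Prom1) without WT1 and likewise without WT3. In bulk RNA, fewer cells of a type and less RNA per cell cannot be told apart.

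**Figure D1:**
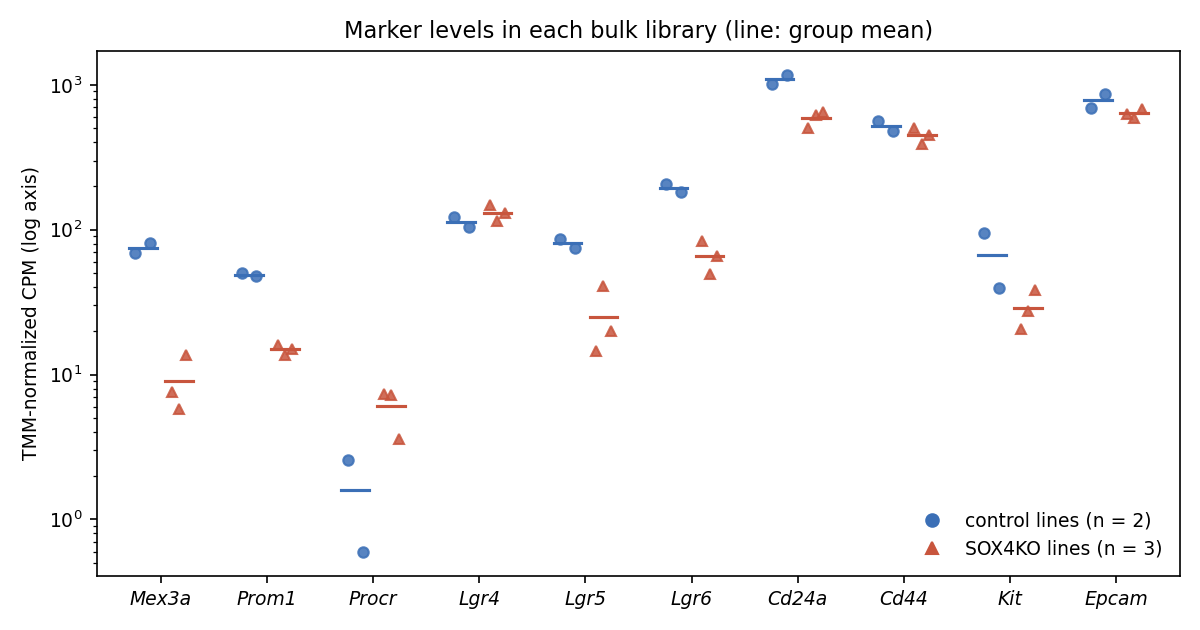
TMM-normalized CPM of the 10 genes (log axis) in the 2 control lines (circles) and the 3 SOX4KO lines (triangles), with group means as short lines. The groups do not overlap for any gene but Lgr4 and Cd44, and Procr and Kit show a wide gap between WT1 and WT3.

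Mex3a (ENSMUSG00000074480) had the largest difference of the members. Its level was 68.9 CPM in WT1 and 80.9 CPM in WT3, against 7.57 in H7, 5.76 in M4 and 13.7 in H4. Every SOX4KO line was far below both control lines, and the log2 fold change was -3.02 (standard error 0.31), or 8.11-fold lower. The counts behind it were 266 and 406 reads in control lines and 16 to 57 reads in SOX4KO lines. Its relatives of the same RNA-binding family behaved unevenly. Mex3d fell by 1.12 on the log2 scale (standard error 0.23, edgeR adjusted p = 0.0418), while Mex3b (-1.33, standard error 0.74) and Mex3c (0.34, standard error 0.18) were not called.

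Prom1 (ENSMUSG00000029086) was even within each group. It stood at 50.0 CPM in WT1 and 47.6 CPM in WT3, and at 15.9, 13.7 and 15.1 CPM in H7, M4 and H4. The groups were widely apart, with a log2 fold change of -1.70 (standard error 0.19), or 3.26-fold lower. Prom2, which encodes the related prominin-2, was at 93.7 and 106 CPM in control lines and 98.4, 116 and 46.0 in SOX4KO lines and was not called.

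The 3 R-spondin receptors did not move together. Lgr5 (ENSMUSG00000020140) was at 86.5 CPM in WT1 and 75.1 CPM in WT3, and at 14.6, 40.7 and 20.1 CPM in H7, M4 and H4. All SOX4KO lines were lower, M4 least so, and the log2 fold change was -1.71 (standard error 0.36). Lgr6 (ENSMUSG00000042793) was at 207 CPM in WT1 and 183 CPM in WT3, and at 83.8, 49.3 and 65.4 CPM in H7, M4 and H4, a log2 fold change of -1.55 (standard error 0.23). Again no SOX4KO line reached a control line. Lgr4 (ENSMUSG00000050199), the widely expressed member of the family, was at 122 and 105 CPM in WT1 and WT3 and at 147, 115 and 130 CPM in H7, M4 and H4. Here the groups overlapped, and the log2 fold change was 0.21 (standard error 0.18). Per kilobase of exon, the order of the levels in control lines was Lgr6 (28.5 ± 2.44 RPKM, SD, n = 2), Lgr4 (19.2 ± 2.09) and Lgr5 (7.87 ± 0.784), each more than an SD from its neighbor. In SOX4KO lines Lgr4 came first (22.2 ± 2.77, SD, n = 3), above Lgr6 (9.66 ± 2.52) and Lgr5 (2.45 ± 1.34). The control order is that of the bulk reads only. In the control single-cell library GR17, Lgr4 (45.9 CPM) was above Lgr6 (12.2 CPM).

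The genes around these receptors were followed as a list of 18 R-spondin, Frizzled and related genes. Of the 14 tested, 1 was called higher and 2 lower, against 6.27% of all genes called either way, and the median log2 fold change was -0.13. The gene called higher was Rspo3, a ligand of the LGR receptors. It was at 2.85 and 0.398 CPM in WT1 and WT3 and at 15.9, 29.9 and 10.5 CPM in H7, M4 and H4, a log2 fold change of 3.59 (standard error 0.72, edgeR adjusted p = 0.0418). Every SOX4KO line was above both control lines, which differed widely between themselves at these low counts. The Frizzled receptors Fzd3 and Fzd2 fell, by 2.10 (edgeR adjusted p = 0.0624) and 1.11 (edgeR adjusted p = 0.096) on the log2 scale. The ligases that R-spondins counteract were not called, with log2 fold changes of -0.58 (standard error 0.25) for Rnf43 and -0.21 (standard error 0.21) for Znrf3. Rspo2 and Rspo4 had no reads in any line, and Rspo1 was at or below 1.81 CPM in all 5.

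The sorting markers differed less. Cd24a (ENSMUSG00000047139), a small glycosylated surface protein, was at 1008 and 1176 CPM in WT1 and WT3 and at 507, 616 and 653 CPM in H7, M4 and H4. No SOX4KO line reached a control line, and the log2 fold change was -0.88 (standard error 0.20), or 1.85-fold lower. Cd24a has near-identical copies elsewhere in the mouse genome, and how the counting shared reads among them is not given in the sources used here, so its level is uncertain. Its call was lost at an adjusted p under 0.05, and without WT1, WT3 or H7. Epcam (ENSMUSG00000045394), an epithelial adhesion molecule, was at 697 and 865 CPM in control lines and at 628, 593 and 685 CPM in H7, M4 and H4, with the groups apart by a narrow margin and a log2 fold change of -0.30 (standard error 0.19). Cd44 (ENSMUSG00000005087), a receptor for hyaluronan, was at 560 and 481 CPM in control lines and 503, 389 and 452 CPM in SOX4KO lines, which overlapped (log2 fold change -0.22, standard error 0.19). Per kilobase of exon, Cd24a (423 ± 46.0 RPKM, SD, n = 2) and Epcam (356 ± 54.1) were the highest members in control lines, Cd24a above Epcam in both lines, followed by Cd44 at 76.8 ± 8.22. In SOX4KO lines Epcam (290 ± 21.3 RPKM, SD, n = 3) stood above Cd24a (229 ± 29.4), in each of the 3 lines. This order was not that of the single-cell counts. There Cd24a was above Epcam in every library, at 793 against 352 CPM in GR17, 490 against 263 in GR18 and 471 against 253 in GR19.

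Kit (ENSMUSG00000005672), the receptor for stem cell factor, separated the control lines. It was at 94.5 CPM in WT1 but 39.6 CPM in WT3, and at 20.6, 27.4 and 38.1 CPM in H7, M4 and H4. WT3 was thus barely above H4, and the log2 fold change of -1.21 (standard error 0.38) became -0.46 without WT1. Its ligand Kitl was at 545 and 615 CPM in control lines and 794, 545 and 575 CPM in SOX4KO lines and was not called. Procr (ENSMUSG00000027611) rested on very few reads, 10 and 3 in WT1 and WT3 and 28, 20 and 15 in H7, M4 and H4. That gave 2.59 and 0.597 CPM in control lines against 7.31, 7.20 and 3.59 CPM in SOX4KO lines, and a log2 fold change of 1.96 (standard error 0.65). The groups did not overlap, yet the fold change ran from 1.20 without WT3 to 3.26 without WT1.

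Relatives, ligands and partners of the members, a list of 23 genes, had 17 tested, of which 2 were called higher and 4 lower (median log2 fold change -0.83). Genes called made up 35.3% of those tested, against 6.27% of all genes. The ones of lowest adjusted p were Tspan8, a tetraspanin (fell by 2.55, edgeR adjusted p = 0.0116), Spp1, the CD44 ligand osteopontin (rose by 4.28, edgeR adjusted p = 0.0298), Mex3d, and Cldn1, the tight junction protein claudin-1 (fell by 1.56, edgeR adjusted p = 0.055). Among 18 intestinal crypt markers, 11 were tested and 1 was called, a share of 9.09%, near that of all genes. This was Cdca7, a proliferation-linked gene that fell by 1.10 (edgeR adjusted p = 0.0872). The crypt genes Olfm4 and Ascl2 had no reads in any line.

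Of 18 mammary stem and basal progenitor markers, 13 were tested, with 3 called higher, 1 lower and a median log2 fold change of 0.91. The share called was 30.8%, against 6.27% of all genes. Nrp1, a co-receptor for VEGF and semaphorins, rose by 1.86 (edgeR adjusted p = 0.0229). Itgb3, the integrin beta chain CD61, rose by 0.95 (edgeR adjusted p = 0.043), and the transcription factor Snai2 rose by 1.25 (edgeR adjusted p = 0.0491). Bcl11b, a zinc finger factor, went the other way. It was at 20.2 and 11.2 CPM in WT1 and WT3 and at 1.83, 1.44 and 1.68 CPM in H7, M4 and H4, and fell by 3.20 on the log2 scale (edgeR adjusted p = 0.0125). Of 17 luminal progenitor markers, 12 were tested, 0 were called higher and 2 lower (median -0.20), the ETS factor Ehf (fell by 1.33, edgeR adjusted p = 0.0146) and the Notch target Hey1 (fell by 0.70, edgeR adjusted p = 0.0973). The share called on that list was 16.7%. The stem and basal list held calls in both directions, and was the only one of these 5 lists whose median was above 0.

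**Figure D2:**
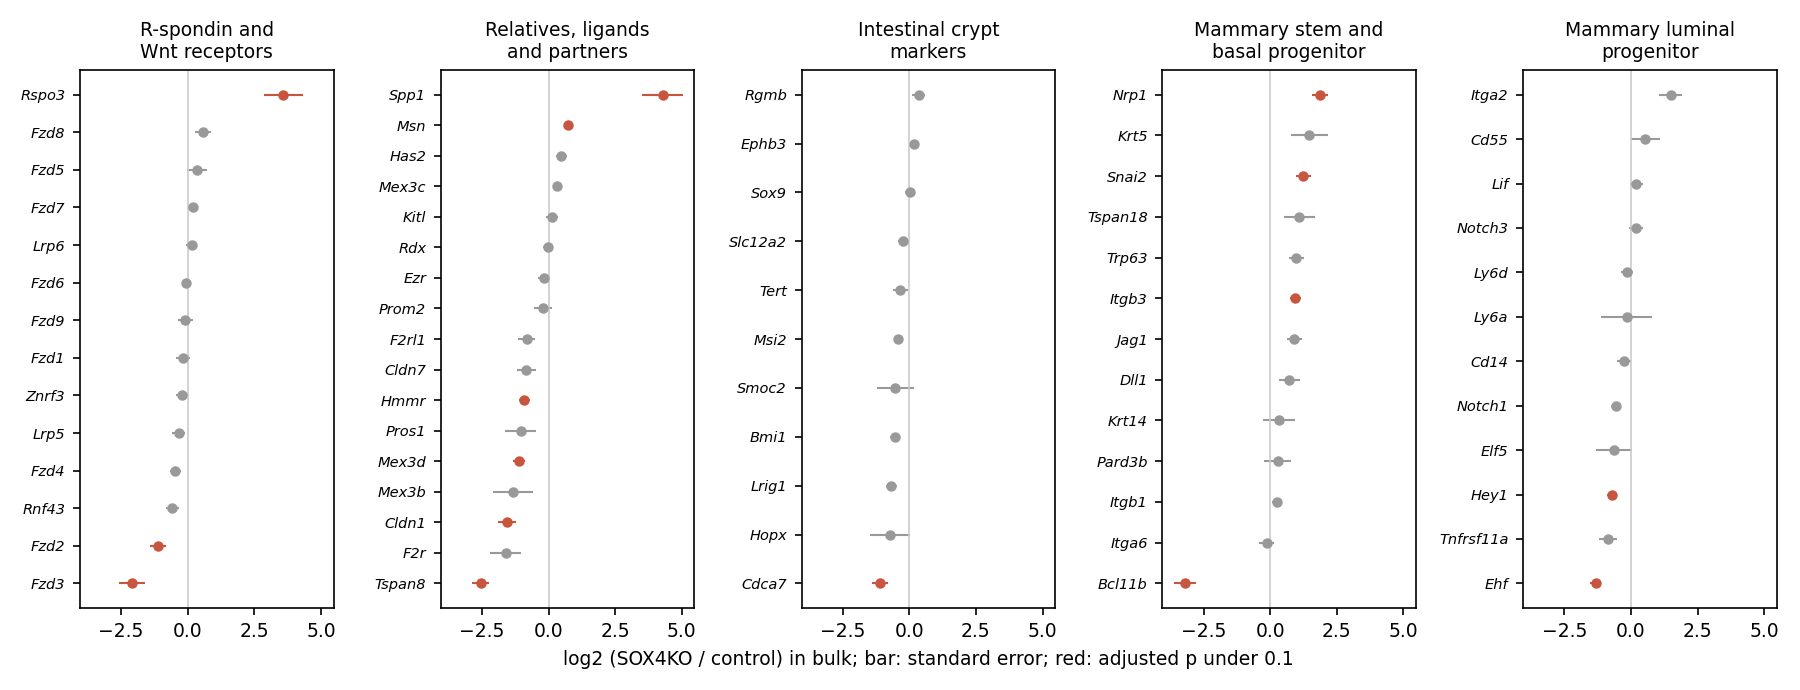
Log2 fold change (SOX4KO over control, x axis) of the tested genes of 5 lists of related genes in bulk RNA, with standard errors as bars and genes of adjusted p under 0.1 in red. Rspo3 and Spp1 stand farthest to the right and Bcl11b and Tspan8 farthest to the left.

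Cell-cycle genes were also lower in SOX4KO lines, and lineage markers did not share 1 direction. All 42 tested S phase genes were lower by value in SOX4KO lines (0 called higher, 9 lower, median log2 fold change -0.72), as were 51 of 54 G2M genes (0 called higher, 14 lower, median -0.73). The shares called were 21.4% of S phase and 25.9% of G2M genes tested, against 6.27% of all genes. Chaf1b, a histone chaperone subunit, fell by 1.70 (edgeR adjusted p = 0.0298), and the mitotic motor Kif11 fell by 1.20 (edgeR adjusted p = 0.0353). The summed S phase genes were 1305 and 1381 CPM in control lines and 756 to 1017 CPM in SOX4KO lines. Summed basal markers were 18805 and 16904 CPM in WT1 and WT3 and 20886 to 24793 CPM in SOX4KO lines, with 3 of 11 tested genes called higher (Vim, Oxtr and Sparc) and 0 lower. Summed luminal markers were 4643 and 4603 CPM in control lines and 5164, 5203 and 10168 CPM in H7, M4 and H4, with Esr1 called higher and Cited1 lower among 15 tested. By gene, the median log2 fold change was 0.51 for the basal list and -0.22 for the luminal list, where 7 were higher by value and 8 lower. Genes called were 27.3% of those tested on the basal list and 13.3% on the luminal list. In GR17, GR18 and GR19, summed basal markers were 5513, 7024 and 4837 CPM, so GR19 was below the control library. Summed luminal markers there were 4676, 8072 and 10116 CPM. The part of these shifts in the members' values was not tested.

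The single-cell libraries showed in which cells the same genes were read. Wells with at least 1000 UMIs (unique molecule tags) numbered 369 in GR17, 369 in GR18 and 362 in GR19, with medians of 19845, 20525 and 21876.5 UMIs, so depth was near equal. Each library is a plate of wells and well positions recur between plates, with 348 positions kept in all 3 libraries. With 1 control library there was no test of genotype, and the intervals given cover counting error only, not the spread between clones. Summed over cells, fibroblast markers were at 4.46 to 5.87 CPM, endothelial markers at 2.65 to 3.89 CPM and immune markers at 2.33 to 8.99 CPM. Among 6303 genes of at least 20 CPM on average, 0.317% were at least 2-fold lower in both SOX4KO libraries and 1.9% at least 2-fold higher. The 5 members past that minimum were Prom1, Lgr4, Cd24a, Cd44 and Epcam, of which 1 (Prom1) was at least 2-fold lower in both and 0 were at least 2-fold higher, a description with the members' values already known.

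Mex3a was again the member with the largest difference, at 36.4 CPM in GR17 (95% Poisson interval 32.3 to 40.9, 281 UMIs), 3.87 CPM in GR18 (2.63 to 5.49) and 5.42 CPM in GR19 (3.96 to 7.26). The ratios to the control library were 9.41-fold lower (6.48 to 14.1) and 6.72-fold lower (4.89 to 9.42). After thinning every cell to 5000 UMIs, a Mex3a UMI was seen in 17.5% of 361 GR17 cells (exact 95% interval 13.7 to 21.8), 1.10% of 365 GR18 cells (interval 0.299 to 2.78) and 2.51% of 358 GR19 cells (interval 1.16 to 4.72). Without thinning the shares were 46.3%, 7.05% and 10.5%, so the gene was read widely in control cells and sparsely in SOX4KO cells. Thinning left out 8, 4 and 4 shallower cells of the 3 libraries. Prom1 was at 54.3 CPM in GR17 (49.2 to 59.8), 18.6 CPM in GR18 (15.7 to 21.8) and 13.9 CPM in GR19 (11.4 to 16.6), that is 2.92-fold and 3.92-fold lower. Its share of thinned cells was 19.7%, 9.04% and 7.54%.

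Of the R-spondin receptors, Lgr4 was higher in the SOX4KO libraries, at 45.9 CPM in GR17 (41.2 to 50.9), 69.3 CPM in GR18 (63.6 to 75.3) and 63.6 CPM in GR19 (58.3 to 69.3). The ratios were 1.51 (1.32 to 1.73) and 1.39 (1.21 to 1.59). Lgr6 was lower, at 12.2 CPM in GR17 (9.85 to 14.9), 7.24 CPM in GR18 (5.50 to 9.36) and 4.46 CPM in GR19 (3.14 to 6.15). The direction of Lgr6 was thus that of the bulk lines, at 1.68-fold lower (1.20 to 2.38) in GR18 and 2.73-fold lower (1.85 to 4.11) in GR19. Lgr5 was read 11, 12 and 10 times in GR17, GR18 and GR19, or 1.43, 1.5 and 1.21 CPM. At that depth the ratio of GR18 to GR17 had an interval from 0.424 to 2.63, which does not reach the 3.27-fold lower level of the bulk lines, while that of GR19 ran from 0.322 to 2.19 and stopped just short of it. Rspo3, the ligand called higher in bulk, had 10 UMIs in GR17, 248 in GR18 and 192 in GR19 (1.30, 31.0 and 23.1 CPM). Other list genes called in bulk did not all keep their direction. Counting intervals were not made for these list genes. Ehf, lower in bulk, was higher by value in both SOX4KO libraries, though only narrowly in GR19 (72.1, 122 and 77.4 CPM). Nrp1, higher in bulk, was at 9.07, 6.99 and 9.88 CPM. Of genes lower in bulk, Cldn1 had 1, 5 and 7 UMIs and Tspan8 3, 1 and 6. Spp1 (355, 492 and 937 CPM), Fzd2, Fzd3, Snai2, Itgb3, Mex3d, Bcl11b, Cdca7 and Hey1 kept their bulk direction in both by value. Hey1 did so only narrowly in GR18, at 155 CPM against 162 CPM in GR17.

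Among the sorting markers, Cd24a stood at 793 CPM in GR17 (773 to 813), against 490 CPM (475 to 505) in GR18 and 471 CPM (457 to 487) in GR19. Epcam stood at 352 (339 to 365), 263 (252 to 274) and 253 CPM (243 to 264). Both were lower in each SOX4KO library by more than counting error. Cd44 lay at 321, 354 and 297 CPM, above the control in GR18 and below it in GR19. Nearly every cell held reads of these genes, with an unthinned share of at least 95.7% for each of them in each library. Thinned cells with UMIs of both Cd24a and Cd44 made up 75.3% of GR17, 66.3% of GR18 and 62.3% of GR19, beside 75.5%, 67.4% and 61.7% from the product of the separate shares. Cells carrying both genes were therefore about as frequent as the 2 shares give in each library.

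Kit and Procr differed between the data types. Kit was at 2.59 CPM in GR17 (1.58 to 4.00, 20 UMIs), 6.12 CPM in GR18 (4.53 to 8.09, 49 UMIs) and 5.06 CPM in GR19 (3.65 to 6.84, 42 UMIs), ratios of 2.36 (1.38 to 4.19) and 1.95 (1.12 to 3.51). Its level was higher in both SOX4KO libraries and lower by value in the bulk SOX4KO lines. The 2 data types did not count every gene alike. Mean control CPM in bulk and CPM in GR17 were 67.1 and 2.59 for Kit and 80.8 and 1.43 for Lgr5. For Lgr6 they were 195 and 12.2, for Mex3a 74.9 and 36.4, and for Prom1 48.8 and 54.3. The reason was not tested, and it limits comparison of Kit, Lgr5 and Lgr6 between the data types. Procr had 23, 24 and 13 UMIs, or 2.98, 3.0 and 1.57 CPM. The ratios to GR17 were 1.0 (0.543 to 1.86) in GR18 and 0.526 (0.245 to 1.08) in GR19, and the higher Procr level of the bulk SOX4KO lines was not seen in these libraries.

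**Figure D3:**
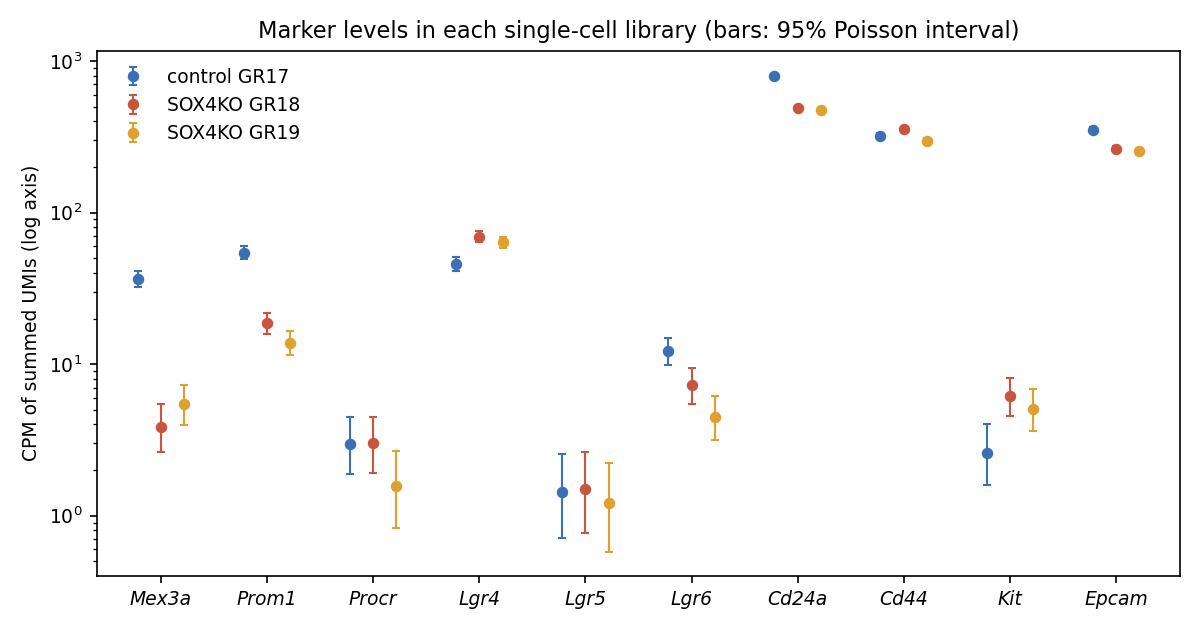
CPM of UMIs summed over cells (log axis) for the 10 genes in the control library GR17 and the SOX4KO libraries GR18 and GR19, with exact 95% Poisson intervals as bars. The control point lies above both SOX4KO points for Mex3a, Prom1, Lgr6, Cd24a and Epcam and below both for Lgr4 and Kit, and the intervals of Lgr5 overlap.

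**Figure D4:**
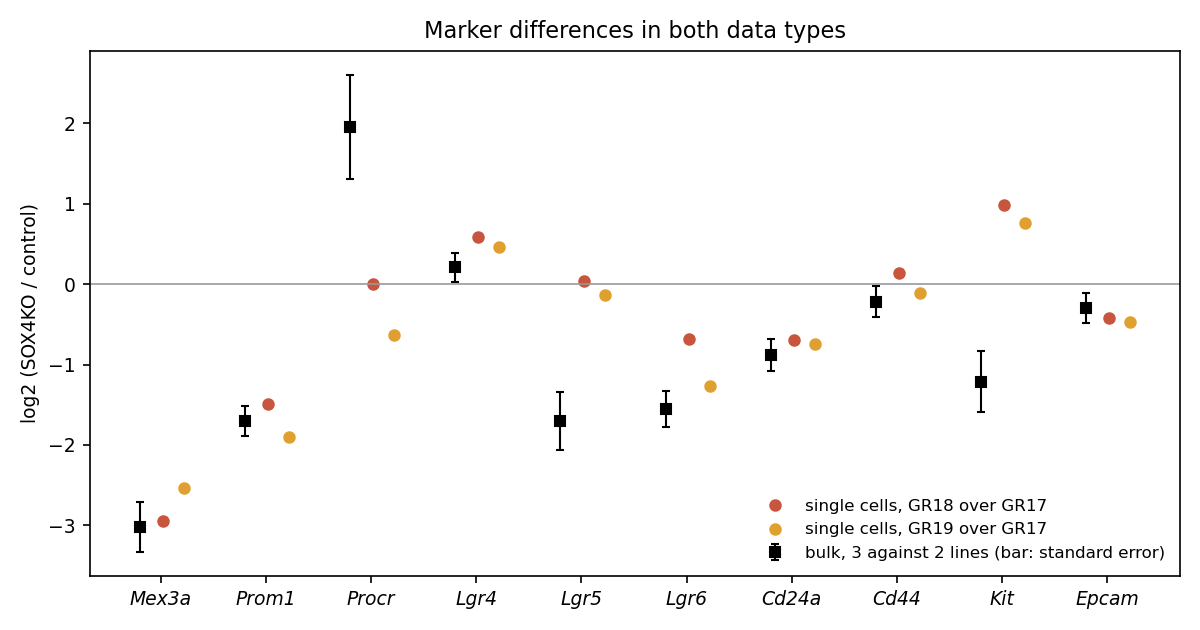
Log2 of SOX4KO over control for the 10 genes, with the bulk fit of 3 against 2 lines as squares (bars are standard errors) and each SOX4KO single-cell library over GR17 as points (1 CPM added). Mex3a, Prom1, Lgr6, Cd24a and Epcam lie below 0 in all 3 values and Lgr4 above 0 in all 3, while Kit changes sides and Lgr5 is low in bulk only.

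Cells were grouped on all genes except the 10 members, which gave 6 clusters, lettered A to F and left unnamed. Cluster A held 333 of the 369 control cells and 17 SOX4KO cells, so it stands for the control library more than for a kind of cell, and a difference between A and the others repeats the difference between libraries. In clusters D and E the luminal keratins Krt8 and Krt18 and the milk protein gene Csn3 were high and the basal keratin Krt5 was at 66.7 and 70.3 CPM, against 1344 to 1967 CPM in A, B, C and F. Clusters B and E had the lowest levels of the proliferation genes Mki67 and Pcna of the 6. The grouping of D with E, and of A, B, C and F, was made after these values were seen. Cluster boundaries rest on genes that differ between the libraries, so the numbers of cells are given as denominators and are not compared.

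Kit was read mostly in clusters D and E, and almost wholly so in the SOX4KO libraries. These held 14 of its 20 UMIs in GR17 (27 cells), 48 of 49 in GR18 (109 cells) and 41 of 42 in GR19 (131 cells). Within them Kit stood at 22.8 CPM in GR17 (12 to 38), 18.1 CPM in GR18 (13.4 to 24.1) and 11.5 CPM in GR19 (8.29 to 15.7). The control level within D and E was thus not below that of the SOX4KO libraries, although the control level over all cells was. The control UMIs there came from only 3 cells of D and 4 of E, so the Poisson interval understates the error. In A, B, C and F together Kit was at 0.845, 0.186 and 0.211 CPM. Procr and Lgr5 showed the reverse by value. D and E held 0 of 23, 1 of 24 and 0 of 13 Procr UMIs in GR17, GR18 and GR19. For Lgr5 they held 0 of 11, 2 of 12 and 0 of 10. By the Poisson interval, a level of 0 there allows up to 6.02 CPM in GR17 and 1.04 CPM in GR19. The other clusters of GR17 were at 3.24 CPM for Procr and 1.55 CPM for Lgr5, below that GR17 limit. The intervals of the 2 sides were apart for Procr in GR18 and GR19 only, and overlapped for Lgr5 in every library. Pooled over libraries, the Lgr5 reads were densest in cluster B, at 4.46 CPM (2.55 to 7.24, 16 UMIs), a cluster with high Krt14 and Sparc. Of these UMIs, 10 came from 5 cells of GR19. In GR18, cluster F was at 3.21 CPM and B at 2.21 CPM, on 4 UMIs each.

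The lower Mex3a and Prom1 levels held on both sides of this division. In D and E, Mex3a was at 34.2 CPM in GR17 (21.2 to 52.4), 3.02 CPM (1.31 to 5.96) in GR18 and 5.07 CPM (3.0 to 8.01) in GR19. In the other clusters it was at 36.6, 4.29 and 5.69 CPM. Prom1 was at 50.6, 14.7 and 9.01 CPM in D and E and at 54.6, 20.5 and 17.5 CPM in the others. Both genes were therefore about as high in the 27 control cells of D and E as in the other 342. The 36 control cells outside cluster A held Mex3a at 31.5 CPM (19.8 to 47.7), and the 17 SOX4KO cells inside it held 0 UMIs, which allows up to 18.6 CPM.

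Cd24a and Lgr4 were graded rather than restricted. Pooled, Cd24a was higher in D and E than in the other clusters in each library, at 1006 against 774 CPM in GR17, 599 against 436 in GR18 and 507 against 445 in GR19. Cluster by cluster this did not hold for D, which was below B (510 against 576 CPM in GR18, 463 against 549 in GR19). Cluster E was at 706 and 584 CPM. Cd44 went the other way, at 223 against 330, 293 against 384 and 230 against 347 CPM. Lgr6 was higher in D and E in each library (22.8 against 11.3, 11.7 against 5.03 and 5.63 against 3.58 CPM), with intervals that overlapped in GR17 and GR19. For this gene D was above B in GR18 (11.7 against 8.86 CPM) and below it in GR19 (3.11 against 5.90 CPM). Lgr4 in D and E was 53.8, 84.3 and 67.9 CPM, and in the others 45.2, 61.9 and 60.5 CPM, and only in GR18 did the intervals of the 2 sides not overlap. Over the clusters, Lgr4 was highest in E (87.1 CPM) and B (80.6 CPM), the clusters of low Mki67, and Epcam varied least, from 240 to 350 CPM.

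**Figure D5:**
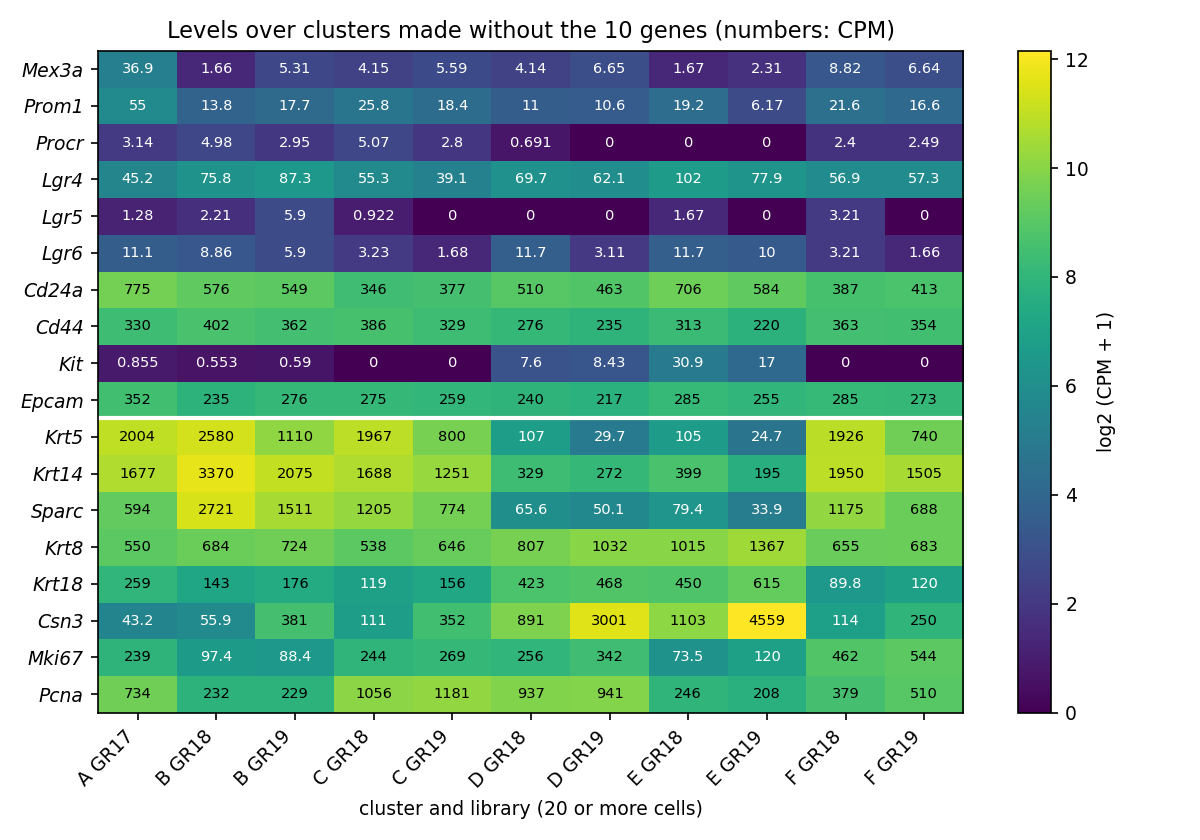
CPM (numbers) and log2 of CPM plus 1 (colors) of the 10 genes, above the white line, and of lineage and proliferation markers, below it, in each cluster and library with 20 or more cells. Kit is above 5 CPM only in D and E, where Krt5 is low and Csn3 high. Mex3a is above 30 CPM only in cluster A of the control library, the only column of that library with enough cells to be shown.

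Since cell-cycle genes were lower in bulk, the members were also read within phases called from S and G2M genes. G1 cells were 77 of 369 in GR17, 164 of 369 in GR18 and 148 of 362 in GR19, and these calls depend on genes that differ between the libraries. Mex3a was lower in SOX4KO cells in every phase. In G1 cells it was at 43.2 CPM in GR17 (32.2 to 56.9), 2.36 CPM in GR18 (0.949 to 4.86) and 4.17 CPM in GR19 (2.16 to 7.29). In G2M cells it was at 43.1, 7.04 and 7.46 CPM, and in S cells at 29.0, 2.66 and 5.09 CPM. Prom1 kept its order too, at 43.2, 18.2 and 11.8 CPM in G1 cells and 54.7, 17.9 and 16.2 CPM in S cells. The Mex3a and Prom1 differences were thus present in cells of like phase, and the SOX4KO level was below the control interval in each phase.

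Lgr4 and Lgr6 were highest in G1 cells in each library. Lgr4 was at 61.1, 83.6 and 84.2 CPM in G1 cells of GR17, GR18 and GR19 and at 42.4, 58.2 and 48.0 CPM in S cells. Lgr6 was at 18.7, 9.78 and 8.0 CPM in G1 cells and 11.5, 7.23 and 2.86 CPM in S cells, with wide intervals. Cd24a was also highest in G1, at 951, 605 and 536 CPM, but lower in SOX4KO cells within each phase. Kit was highest by value in G1 cells in each library, at 11.9, 11.8 and 6.61 CPM, against 0.82, 3.42 and 5.41 CPM in S cells. Its G1 (3.98 to 10.3) and S (3.15 to 8.66) intervals overlapped in GR19. In G1 cells its intervals overlapped between the 3 libraries. G1 cells were shallower than S cells, with medians of 17200 and 23559 UMIs, and the part of depth in these levels was not tested.

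Within a library, correlations of the members over cells were weak, and are given as a description. The cells of a library share a plate, and sparse genes are bounded by their counts. By the mean over the 3 libraries, the largest with a basal-minus-luminal marker score were those of Cd44 (0.09, 0.18 and 0.33 in GR17, GR18 and GR19) and Kit (-0.19, -0.27 and -0.23). Over the S and G2M genes, Cd24a had -0.17, -0.26 and -0.15, and Lgr4 -0.06, -0.17 and -0.20. Cd24a and Kit correlated at 0.18, 0.15 and 0.14, and Cd24a and Cd44 at -0.10, -0.13 and -0.09. On cells thinned to 5000 UMIs these pairs were at 0.12, 0.07 and 0.04, and at -0.05, -0.10 and -0.04, and Kit with the marker score at -0.18, -0.14 and -0.10. Mex3a and Prom1, which differed most between libraries, hardly correlated within any (at most 0.03, and -0.05 to -0.03 on thinned cells).

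For the 4 members with a UMI in at least 25% of the cells of every library, the genes of most like pattern were sought among 8833 others by the mean within-library correlation. Those for Cd44 were Dsp (0.25), which encodes the desmosome protein desmoplakin, Pkp1 (0.24), plakophilin-1 of the same junctions, and Rflnb (0.23). Those for Cd24a were Hid1 (0.32), Wfdc3 (0.29) and Spns2 (0.28), a sphingosine-1-phosphate transporter. The closest to Lgr4 were Igfbp5 (0.18), Tsc22d1 (0.17) and Trps1 (0.16), and to Epcam Spp1 (0.17), the mitotic cyclin Ccnb2 (0.16) and the lamin gene Lmna (0.15). None of these means exceeded 0.32, and they were the highest of a large number compared.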

How the data were processed

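Bulk RNA of 5 organoid lines and single cells of 3 libraries were analysed. For each bulk line the authors deposited a table of read counts by gene, and for each single-cell library a table of UMI counts by gene and well, neither of them normalized. The submitters' processing notes name STAR 2.4.2a, HTSeq, Seurat and R 3.6.1 and the build NCBIM37 (mm9), without saying which step each served; the strand setting of the counting is not given in the sources used here. Symbols and exon lengths came from GENCODE vM21.

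Bulk counts were tested with edgeR 4.0.16 in R 4.3.3 (filterByExpr, TMM factors 0.913 to 1.08, quasi-likelihood test, Benjamini-Hochberg adjustment, called under 0.1), with the line as replicate. Standard errors are the absolute log2 fold change over the root of its F statistic. The test was checked on simulated data of 3 SOX4KO lines against 2 control lines, where 189 of 200 genes changed 3-fold were recovered and 23 others were called among 11682. Wells under 1000 UMIs were left out, and spike-in and reporter rows (0.79% to 1.62% of UMIs) were removed. No doublet caller was run on the plate wells; wells over 2 times the median numbered 8, 20 and 11. Clustering used Seurat 5.3.0 (2000 variable genes, 10 principal components, 20 neighbours, resolution 0.5), with the members left out. Ratios on the log2 scale had 1 CPM added. Intervals are exact, at 95%.

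The members and gene lists were chosen with earlier results of these data known, and 1 gene of the list of relatives, ligands and partners is not reported here and was left out of its counts. Genes are named if they are Sox4, a member, among at most 4 genes called per list with the lowest adjusted p (or, with none called, the 2 highest), or among the 3 genes most like a common member; ligands, ligases and family relatives of members, and cluster markers, were named after their values were seen. Alternatives covered DESeq2 1.42.0, its size factors, filters, thresholds, lines and libraries left out, UMI minimums of 500 and 2000, other totals, thinning and clustering.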

Additional observations from a re-analysis of the deposited data

How the results depend on the processing

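No paired analysis was possible because the lines are independent clones whose labels share no replicate numbers. Of 11682 genes, 479 were called higher and 254 lower. With every gene of at least 1 count tested the counts were 1008 and 678, and at an adjusted p under 0.05 they were 241 and 113; the cause of the rise without a filter was not tested. With DESeq2 they were 676 and 323. Leaving out a line gave 30 to 624 higher and 26 to 382 lower, lowest without WT3. Of the members, 5 were called lower and 0 higher. Without a filter 6 were lower and 1 (Procr) higher, and leaving out a line gave 2 to 6 lower and 0 to 1 higher (Procr, without H4). Of the 5 lists of related genes, 6 were called higher and 10 lower. Without a filter this was 12 and 16, at 0.05 4 were lower, and leaving out a line gave 0 to 9 higher and 1 to 10 lower. No bulk fold change of a member changed sign in any of 90 recomputed values.

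Values near 0 changed sign in 11 cases. In log2 ratio, leaving out a SOX4KO library gave -0.633 to 0.00539 for Procr, -0.138 to 0.0423 for Lgr5 and -0.115 to 0.139 for Cd44, and Lgr5 was 0.033 as a mean over cells. In share of cells (percentage points), Lgr5 became 0.442 at 10000 UMIs, and Cd44 became 0.0601 at 10000 UMIs and 0.122 unthinned. In correlation on thinned cells, Mex3a (-0.0307) and Lgr4 (-0.00187) changed sign for the basal-minus-luminal score, and Cd44 (-0.0504) and Epcam (-0.0145) for the cell-cycle score. With 10 CPM added the log2 ratio of Mex3a shrank to -1.67, of Lgr6 from -0.98 to -0.49 and of Kit from 0.87 to 0.31. As a mean over cells that of Kit was 0.41, and its mean correlation with the marker score went from -0.23 to -0.14 on thinned cells. Lgr5, Procr and Kit each had fewer than 50 UMIs a library, so their single-cell values rest on few counts.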
